A study of Mus musculus with 6 samples.

Results

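The genes described here are 10 genes of the p53 and cell senescence network in the mouse liver, taken from a list of symbols: Trp53, Mdm2, Cdkn1a, Ccng1, Btg2, Bax, Bbc3, Sesn1, Gdf15 and Cdkn2a. All 10 were found in the deposited table of 24532 genes, and all 10 were among the 14415 genes kept by a filter on low counts and tested. Cdkn2a passed that filter with at most 24 estimated counts in any library.

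All 6 mice were wild-type C57BL/6 animals kept for 4 weeks on chow with 0.1% DDC. This dihydrocollidine compound disturbs porphyrin handling, injures bile ducts and scars the liver. In the last 2 weeks, 3 mice were injected with rhCYGB, recombinant human cytoglobin, at 2 mg/kg and 2 times a week, and 3 with its vehicle, normal saline, and tissue was collected 2 days after dosing ended. Every group ate DDC, so the effect of DDC itself was not analysed here, and the labels used here give neither age nor sex.

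The p53 protein, encoded by Trp53, is a transcription factor that is kept scarce by the ubiquitin ligase MDM2 and is stabilised by DNA damage and other stress. It then switches on genes that stop the cell cycle, start cell death or limit oxidative damage, and it switches on Mdm2, which closes a feedback loop. Its activity is set mostly by protein stability, so the level of Trp53 mRNA says little about it, and the mRNAs of its targets are the usual readout. In injured liver the p21 protein, made from Cdkn1a, restrains hepatocyte division and is used with p16INK4A, made from Cdkn2a, as a marker of senescent cells.

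The best known link between these genes is the p53 binding site, a pair of half-sites of 10 bases each, and the windows just before the start sites of 4 members hold such a pair. The RefSeq promoter table (build GRCm38.p6, of which mm10 is the browser name) held 16 windows for the 10 members, each from 250 bases before to 50 after a start site, and all 10 members matched by symbol. The consensus p53 half-site was searched on both strands, which is one search because the consensus is its own reverse complement. A pair was counted with a spacer of 0 to 3 bases, the central C and G kept in both half-sites, and at most 2 mismatches elsewhere. Such a pair was found in 4 of 16 member windows and in 1.35% of all 32851 windows, and an exact half-site in 6 of 16 member windows and in 8.36% of all. The 250 bases before each of those 4 starts are printed 5′ to 3′ on the gene's strand, with exact half-sites and the pair in capitals.
Cdkn1a variant 2 (chr17:29090729-29090978, plus strand): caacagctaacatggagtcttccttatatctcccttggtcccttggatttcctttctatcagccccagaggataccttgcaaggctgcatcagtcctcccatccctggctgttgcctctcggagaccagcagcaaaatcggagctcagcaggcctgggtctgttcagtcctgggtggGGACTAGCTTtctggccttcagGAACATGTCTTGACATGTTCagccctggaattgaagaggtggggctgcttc
Ccng1 (chr11:40755287-40755536, minus strand): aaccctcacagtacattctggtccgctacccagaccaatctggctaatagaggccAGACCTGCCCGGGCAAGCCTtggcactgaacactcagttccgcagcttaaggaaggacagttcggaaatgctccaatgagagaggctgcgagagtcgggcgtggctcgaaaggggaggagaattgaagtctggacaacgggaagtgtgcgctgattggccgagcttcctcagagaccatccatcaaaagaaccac
Bax (chr7:45466899-45467148, minus strand): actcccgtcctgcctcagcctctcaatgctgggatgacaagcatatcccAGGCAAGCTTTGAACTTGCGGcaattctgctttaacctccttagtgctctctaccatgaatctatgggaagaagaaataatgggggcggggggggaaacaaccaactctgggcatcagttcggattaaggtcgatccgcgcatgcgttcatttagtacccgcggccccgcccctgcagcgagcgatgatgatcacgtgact
Sesn1 variant 2 (chr10:41887189-41887438, plus strand): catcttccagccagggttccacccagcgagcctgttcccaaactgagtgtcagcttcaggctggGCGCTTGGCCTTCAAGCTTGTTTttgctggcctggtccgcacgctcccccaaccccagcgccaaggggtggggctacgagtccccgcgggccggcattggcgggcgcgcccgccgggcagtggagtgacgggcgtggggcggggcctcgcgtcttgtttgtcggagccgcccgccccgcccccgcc
The pair began 51 bases before the start of Cdkn1a variant 2, 195 before Ccng1, 201 before Bax and 186 before Sesn1 variant 2, with 1, 1, 2 and 2 mismatches. Trp53 and Mdm2 held an exact half-site without such a pair. The windows of Cdkn2a, Bbc3, Btg2 and Gdf15, the start of Cdkn1a variant 1 and that of Sesn1 variant 1 held neither by these rules. A match is only a description of the letters, and no binding was measured here.

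All 10 genes were detected in the DDC-fed livers, and their levels spanned a wide range. Levels between genes are compared as TPM, the transcript unit that corrects for length, here the deposited FPKM rescaled to the same sum in each library. In the vehicle group Bax, whose product opens the mitochondrial membrane during apoptosis, was the most abundant at 83.8 ± 11.7 TPM (SD, n = 3). Cdkn1a followed at 41.2 ± 8.68 TPM, Ccng1 at 34.3 ± 9.26, Btg2 at 31.8 ± 2.59, Trp53 at 28.7 ± 10.4, Mdm2 at 20.02 ± 5.91 and Gdf15 at 19.8 ± 0.434 TPM. Each neighbouring pair in that run from Cdkn1a to Gdf15 overlapped in its library values, so the order of neighbours is not resolved, while Cdkn1a and Btg2 lay above Mdm2 and Gdf15 in all vehicle libraries. Sesn1 at 10.5 ± 3.16 and Bbc3 at 9.36 ± 1.14 TPM also overlapped each other, and Cdkn2a, at 0.409 ± 0.121 TPM, lay far below the rest. With rhCYGB the order of means was the same down to Gdf15, and the SD was larger than with vehicle for each member except Trp53 (8.48 against 10.4 TPM). Bax was at 76.6 ± 22.0 TPM, Cdkn1a at 23.4 ± 16.4 and Gdf15 at 6.92 ± 6.76 TPM.

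The comparison of the groups asks how rhCYGB treatment changed these genes in the DDC-injured liver. None of the 10 passed the test, and the member with the largest difference was Gdf15, a secreted stress cytokine, with a mean of 14.0 ± 3.32 CPM with vehicle and 6.37 ± 4.26 CPM with rhCYGB. In bulk RNA of whole liver, fewer cells that express a gene and less RNA per cell cannot be told apart. CPM values relate estimated counts to the library total, here scaled by TMM, a factor from the trimmed mean of gene ratios. By edgeR's quasi-likelihood test an adjusted p of 0.05 was passed by 0 of the 10 members and 0 of 14415 genes (0%). At an unadjusted p under 0.05 there were 0 of 10 members against 8.12% of all genes. DESeq2 called 62 genes, 3.28% of the 1890 left by its own filtering, which gave none of the 10 members an adjusted p. At an unadjusted p under 0.05 DESeq2 gave 0 members against 11.1% of genes. A p that misses the threshold does not show that levels were equal. Quality-weighted limma-voom, an alternative that estimates a weight for each library, put 2 of 10 members, Bax and Gdf15, past an adjusted p of 0.05 against 30.6% of all genes, and 5 of 10 against 46.2% at an unadjusted p under 0.05. Values were lower with rhCYGB in 7 of 10 members and 53.2% of all genes, with a median log2 fold change of -0.18 against -0.06 over all genes tested. With TMM the groups failed to overlap for 1 of 10 members, Gdf15, which was lower, as were 7.38% of all genes, and for 0 members that were higher, against 6.02%. Gdf15 was also the 1 member without overlap on the TPM scale, where 12.7% of all genes were lower without overlap.

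**Figure D1:**
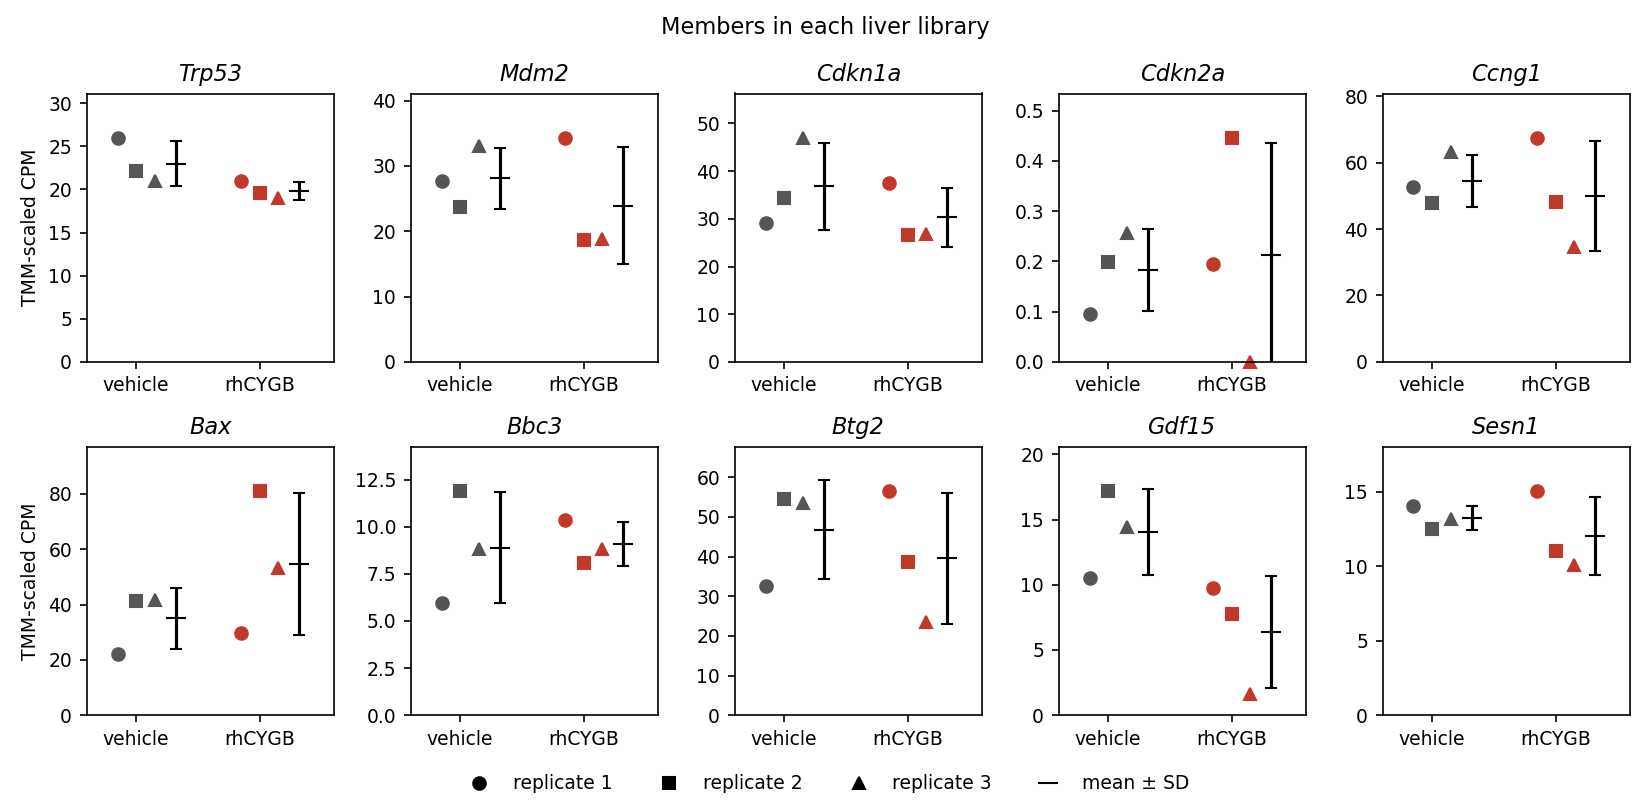
TMM-scaled CPM of each of the 10 genes (vertical axis, linear from 0) in the 3 vehicle and the 3 rhCYGB libraries, with marker shape for the replicate and the group mean ± SD beside the points. Gdf15 is the panel in which all 3 rhCYGB points lie below all 3 vehicle points, and the Cdkn2a panel rests on at most 24 estimated counts.

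Treated and vehicle libraries did not form 2 clusters. On the main axis of variation in log2 CPM, a principal component with 66.7% of the variance, rhCYGB replicate 1 scored -54.6 and lay between vehicle scores of -83.3, -27.5 and -35.4, while rhCYGB replicates 2 and 3 scored 61.3 and 139.4. Total estimated counts were 58422095 to 72431373 per library, and the TMM factors for vehicle replicates 1 to 3 were 1.45, 1.07 and 1.18 and for rhCYGB 1.18, 0.744 and 0.630, so this scaling raises values in rhCYGB replicates 2 and 3. In rhCYGB replicate 3 the ribosomal RNA gene Rn45s took 1.74% of counts, against 0.225% to 0.443% in the other libraries, and 14933 genes were detected against 15542 to 16290. Libraries also differed by transcript length. The slope per doubling of length was taken on log2 CPM minus each gene's mean over the 6 libraries. It was 0.41, -0.02 and 0.06 in the vehicle livers against 0.24, -0.35 and -0.33 in the treated livers. Without rhCYGB replicate 1, edgeR called 23.2% of the genes tested, and 0 of 10 members. At an unadjusted p under 0.05 there were then 3 of 10 members, against 42.0% of all genes.

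Trp53 and its regulator Mdm2 had overlapping groups. Trp53 (gene 22059, chromosome 11, 69580359 to 69591873) read 25.9, 22.1 and 20.9 CPM in the vehicle livers against 21.0, 19.6 and 19.0 in the treated livers. Its 3 rhCYGB values were close together and only replicate 1 reached into the vehicle range, by a margin of 20.98 against 20.94 CPM. The log2 fold change was -0.21 (SE 0.22, edgeR adjusted p = 0.642). Mdm2 (gene 17246, chromosome 10, 117688875 to 117710758), the ubiquitin ligase that is both a target and the main inhibitor of p53, read 27.8, 23.7 and 33.0 CPM in the vehicle livers against 34.2, 18.7 and 18.8 in the treated livers. Here rhCYGB replicate 1 was the highest of the 6 libraries and rhCYGB replicates 2 and 3 were the lowest. The log2 fold change was -0.23 (SE 0.32, edgeR adjusted p = 0.711), and without rhCYGB replicate 1 it was -0.59 (edgeR unadjusted p = 0.0365, adjusted p = 0.0975).

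The groups also overlapped for the 3 genes that slow cell division. Cdkn1a (gene 12575, chromosome 17, 29090979 to 29100722), whose product p21 blocks cyclin-dependent kinases, read 29.1, 34.4 and 46.9 CPM in the vehicle livers against 37.5, 26.6 and 26.7 in the treated livers. The lowest vehicle value lay below the highest rhCYGB value, so the groups overlapped, and the log2 fold change was -0.28 (SE 0.28, edgeR adjusted p = 0.635). Without vehicle replicate 3 the difference was -0.07 on the log2 scale. Ccng1 (gene 12450, chromosome 11, 40748552 to 40755286), which encodes cyclin G1, a p53 target that acts back on MDM2, read 52.8, 47.8 and 63.1 CPM in the vehicle livers against 67.3, 48.1 and 34.5 in the treated livers. The rhCYGB group held both the highest and the lowest of its 6 values, and the log2 fold change was -0.13 (SE 0.30, edgeR adjusted p = 0.830). Btg2 (gene 12227, chromosome 1, 134074865 to 134079155), an antiproliferative gene that promotes shortening of mRNA tails, read 32.5, 54.4 and 53.4 CPM in the vehicle livers against 56.4, 38.7 and 23.5 in the treated livers. Again rhCYGB replicate 1 was highest and rhCYGB replicate 3 lowest. The log2 fold change of Btg2 was -0.24 (SE 0.38, edgeR adjusted p = 0.747), and without rhCYGB replicate 3 it was 0.02.

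The 2 cell death genes had different patterns across the libraries, and neither passed the test. Bax (gene 12028, chromosome 7, 45461695 to 45466898) read 22.3, 41.2 and 41.5 CPM in the vehicle livers against 29.6, 80.9 and 53.2 in the treated livers. In rhCYGB replicates 2 and 3 it was above all vehicle libraries, and in rhCYGB replicate 1 it lay within their range. Its log2 fold change was 0.64 (SE 0.42, edgeR adjusted p = 0.546). The Bax transcript is short, 869 bases against a median of 2761 for all genes tested, and with each library's length trend removed its log2 fold change was 0.01 (SE 0.21). Without rhCYGB replicate 1 it was 0.93 (edgeR unadjusted p = 0.0228, adjusted p = 0.0729). Bbc3 (gene 170770, chromosome 7, 16309583 to 16318334), which encodes PUMA, a BH3-only activator of BAX, read 5.97, 11.9 and 8.84 CPM in the vehicle livers against 10.4, 8.05 and 8.82 in the treated livers. All 3 rhCYGB values lay inside the vehicle range, and the log2 fold change was 0.03 (SE 0.32, edgeR adjusted p = 0.966).

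Gdf15 (gene 23886, chromosome 8, 70629393 to 70632456) is a p53 target that is also induced by the integrated stress response, and its protein acts on a brainstem receptor to reduce appetite. It read 10.5, 17.2 and 14.4 CPM in the vehicle livers against 9.79, 7.74 and 1.59 in the treated livers. All rhCYGB libraries were below all vehicle libraries, narrowly for rhCYGB replicate 1 and widely for replicate 3, where 60 estimated counts stood against 751 in replicate 1. Replicate 3 is the library with the raised Rn45s share and the fewest genes detected, and their part in the Gdf15 value was not tested. The log2 fold change was -1.14 (SE 0.60, edgeR unadjusted p = 0.101, adjusted p = 0.523). Without rhCYGB replicate 3 the value was -0.69, and without rhCYGB replicate 1 it was -1.58 (edgeR unadjusted p = 0.0400, adjusted p = 0.103). Over 16 alternatives it was negative in 16, from -2.18 to -0.69, with adjusted p from 0.0333 by quality-weighted limma-voom to 0.937.

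Sesn1 (gene 140742, chromosome 10, 41810574 to 41908436), which encodes sestrin 1, a stress protein that restrains mTORC1 signalling, read 14.1, 12.5 and 13.2 CPM in the vehicle livers against 15.01, 11.02 and 10.1 in the treated livers. As for Mdm2, rhCYGB replicate 1 was the highest library and replicates 2 and 3 the lowest. The log2 fold change was -0.14 (SE 0.26, edgeR adjusted p = 0.786). Cdkn2a (gene 12578, chromosome 4, 89274473 to 89294619), which encodes the senescence proteins p16INK4A and p19ARF, had 8, 14 and 18 estimated counts in the vehicle livers against 15, 24 and 0 in the treated livers. The 0 in rhCYGB replicate 3 allows up to 0.0797 CPM, from 3 counts in that library and for counting error only, and rhCYGB replicate 2 held the highest value, 0.445 CPM. The log2 fold change was 0.26 (SE 1.08, edgeR adjusted p = 0.905), so at this depth a difference in Cdkn2a was not detectable.

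The transcript table divided 6 members into 2 RefSeq variants, and the split of Sesn1 differed widely between libraries. Variant 1 of Sesn1 starts at 41810574 and variant 2 at 41887439, the start whose upstream window is printed above. Variant 2 had 716, 558, 655 and 689 estimated counts in the 3 vehicle libraries and rhCYGB replicate 1 and was listed at 0 in rhCYGB replicates 2 and 3. It made up 64.9%, 67.9% and 74.7% of Sesn1 TPM with vehicle and 64.5% in rhCYGB replicate 1. Variant 1 read 4.92, 2.53 and 2.41 TPM in the vehicle livers against 4.09, 3.71 and 2.90 in the treated livers. On the TPM scale the libraries without variant 2 thus had variant 1 at a level within the vehicle range. With TMM scaling, all rhCYGB values of variant 1 lay above all vehicle values. How many of all transcripts were separated in this way was not computed, so it is not known whether this is unusual. By edgeR on transcripts variant 1 had a log2 fold change of 0.85 (SE 0.38, adjusted p = 0.802) and variant 2 of -1.51 (SE 2.41, adjusted p = 0.864). The division between variants is the assembler's estimate, and an exact 0 can be a failed estimate.

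The minor variants of Mdm2 and Cdkn1a were listed at 0 in the same rhCYGB libraries. Mdm2 variant 2 had 161, 195 and 6 estimated counts in the vehicle livers against 265, 0 and 0 in the treated livers. Cdkn1a variant 2, whose start lies just behind the p53 pair printed above, had 128, 0 and 109 estimated counts in the vehicle livers against 186, 0 and 0 in the treated livers, while variant 1 made up at least 93.7% of Cdkn1a TPM in each library. Gdf15 variant 1 had 547, 1035 and 750 estimated counts in the vehicle livers against 472, 299 and 60 in the treated livers, and its log2 fold change of -1.31 (SE 0.64, edgeR adjusted p = 0.802) was close to that of the gene. Gdf15 variant 2 was listed at 0 in rhCYGB replicate 3. Trp53 variant 1 made up 83.0% to 96.3% of Trp53 TPM, and both variants of the gene were detected in all 6 libraries. With TMM scaling, Trp53 variant 1 and Gdf15 variant 1 were lower with rhCYGB without overlap. The share of all transcripts without overlap was not computed. Trp53 variant 1 had a log2 fold change of -0.28 (SE 0.21, edgeR adjusted p = 0.814). The 2 products of Cdkn2a start at 89294619 for variant 1, the p19ARF transcript, and 89282192 for variant 2, the p16INK4A transcript. Estimated counts of variant 2 were 0, 14 and 6 in the vehicle livers and 0 in each treated liver, and those of variant 1 were 8, 0 and 12 against 15, 24 and 0. Of the 16 member transcripts 15 were tested by edgeR, and 0 had an unadjusted p under 0.05, against 4.04% of 19664 transcripts. At an adjusted p of 0.05 there were 0 transcripts (0%).

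**Figure D2:**
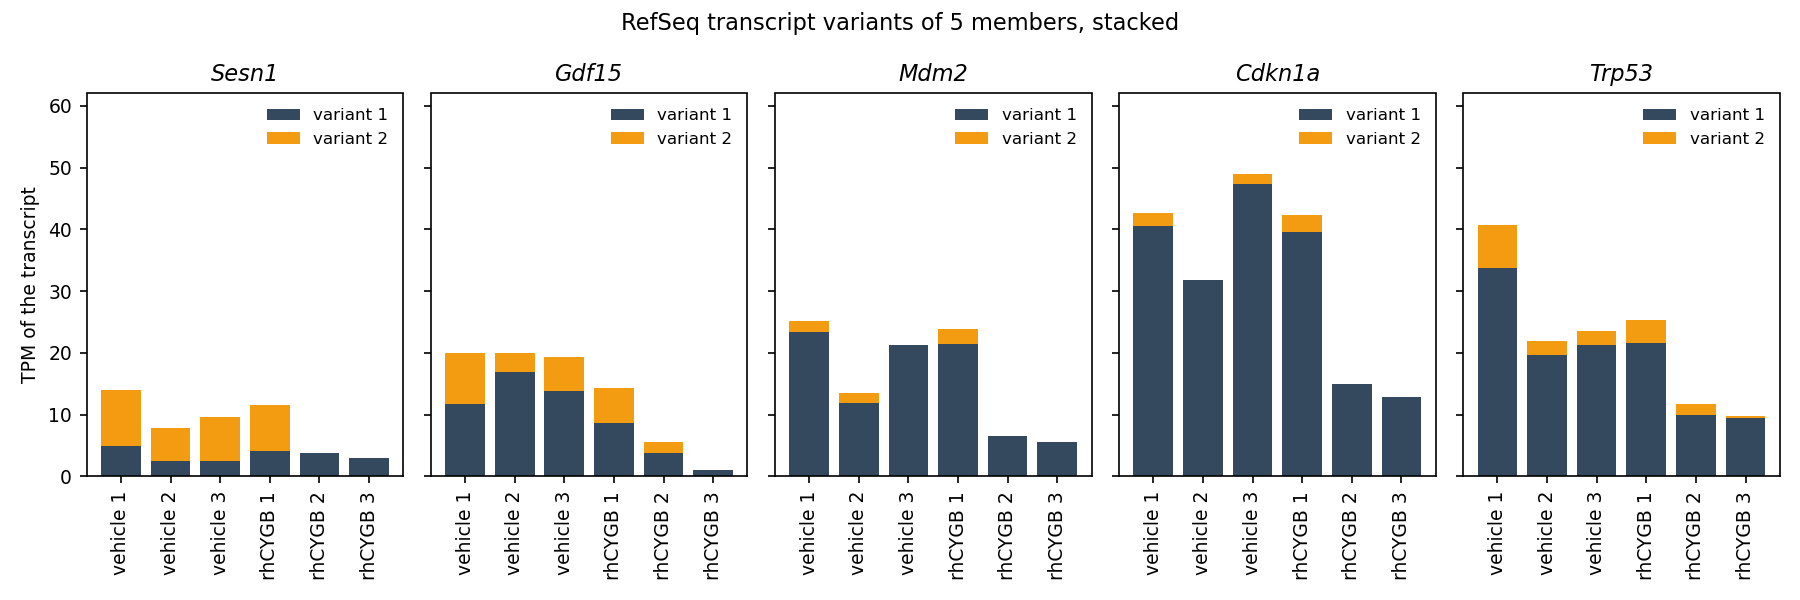
TPM of each RefSeq transcript variant (vertical axis, stacked bars from 0) of Sesn1, Gdf15, Mdm2, Cdkn1a and Trp53 in each of the 6 libraries. Variant 2 of Sesn1, between 5.36 and 9.09 TPM in the first 4 bars, is listed at 0 in rhCYGB 2 and rhCYGB 3, and all 5 genes are lower in those libraries on this scale.

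How many members were lower depended on the scaling. With TMM it was 7 of 10, with upper-quartile factors 8 of 10, with library totals alone 9 of 10, and by limma on log2(TPM + 1) 9 of the 9 members tested. The share of all genes that was lower moved from 53.2% with TMM to 60.4%, 81.3% and 87.0%. The median log2 fold change of the members was -0.18, -0.30, -0.61 and -0.90 in that order, and that of all genes tested was -0.06, -0.18, -0.56 and -0.58. The 3 other scalings thus lowered the median of all genes by over 0.1, and the members' median lay below that of all genes under each of the 4. With TMM and without rhCYGB replicate 3, the members' median was -0.006 and that of all genes -0.017. On both TPM scales 1 member, Gdf15, had a limma unadjusted p under 0.05, against 7.47% of all genes with a pseudocount of 1 and 6.99% with 0.1. Bax had a positive log2 fold change with TMM and -0.16 on log2(TPM + 1), and Bbc3 changed sign with each of these 3. The signs of Trp53, Mdm2, Cdkn1a, Gdf15 and Sesn1 were negative in all 16 alternatives run. On TPM, rhCYGB replicate 3 was the lowest of the 6 libraries for 10 of 10 members, where it was the lowest for 59.7% of all genes tested. With TMM it was the lowest for 6 of 10 members, against 33.4% of all genes.

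**Figure D3:**
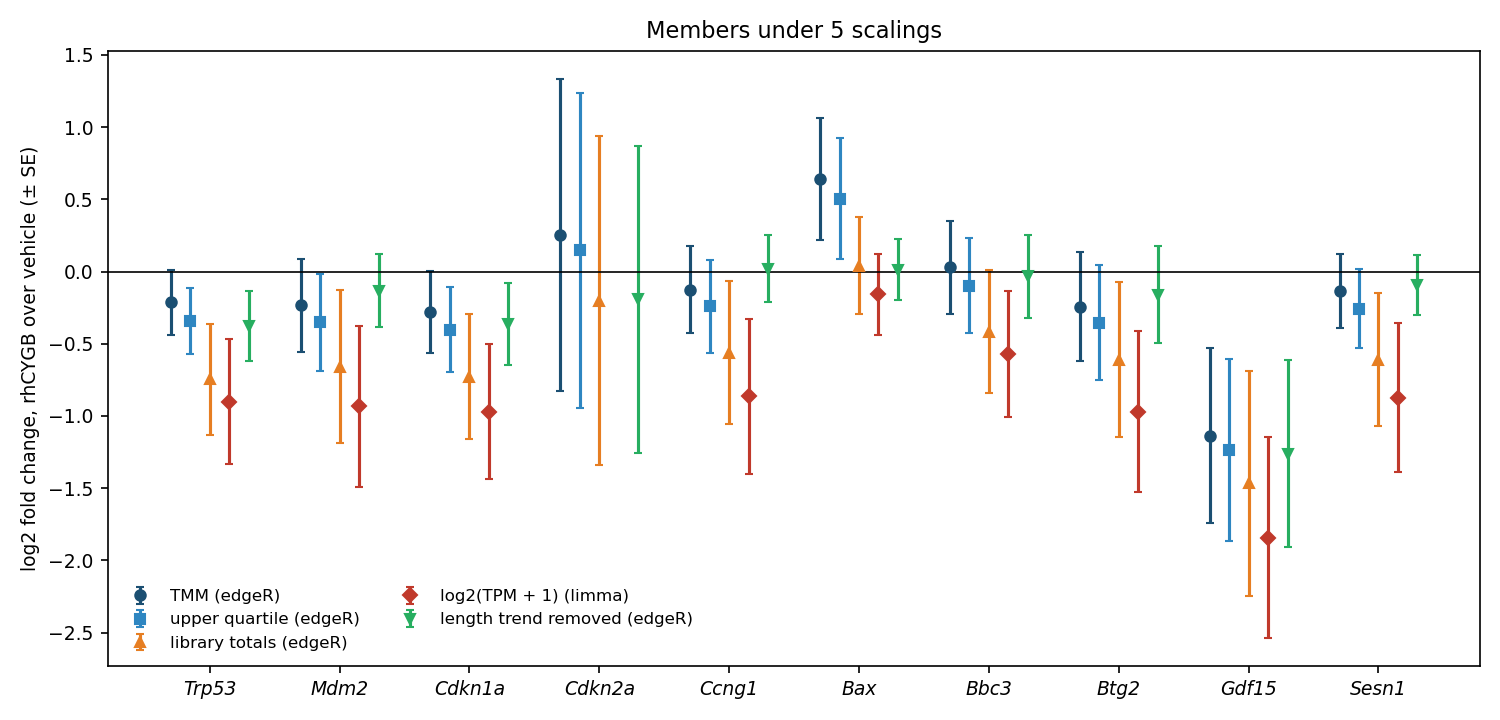
Log2 fold change of rhCYGB over vehicle (vertical axis, ± SE) of each member under 5 scalings, each with its own marker. Gdf15 is below 0 under all 5, Bax runs from 0.64 with TMM to -0.16 on log2(TPM + 1), and Cdkn2a, which was not tested on the TPM scale, has the widest error bars.

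A ratio of members within 1 library does not depend on the scaling factor of that library. The ratios to Trp53, chosen after the values were seen, overlapped between the groups for each of the 8 targets with a ratio. Such a ratio still holds the library's length trend where lengths differ, as for Bax (869 bases) and Trp53 (1772 bases). With that trend removed, the log2 fold change was 0.01 for Bax and -0.38 for Trp53. Mdm2 was at 0.619, 0.617 and 0.905 of the Trp53 TPM with vehicle and at 0.943, 0.550 and 0.569 with rhCYGB. Cdkn1a was at 1.05, 1.45 and 2.08 times the Trp53 TPM with vehicle and at 1.67, 1.27 and 1.31 times with rhCYGB. All rhCYGB ratios of Cdkn1a lay within the vehicle range, and those of Mdm2 lay on both sides of its vehicle range. Gdf15 had ratios of 0.492, 0.910 and 0.820 in the vehicle livers against 0.562, 0.472 and 0.0967 in the treated livers. Bax had ratios of 1.77, 3.82 and 4.06 against 2.90, 8.50 and 5.74. In both cases the ratio in rhCYGB replicate 1 lay within the vehicle range and those in rhCYGB replicates 2 and 3 lay outside it. With 3 libraries against 3, an exact permutation test cannot go below a two-sided p of 0.1, so these ratios are given without a test.

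The other genes of the pathway, in 8 lists chosen by name, gave a mixed picture with 0 genes past an adjusted p of 0.05. Regulators of p53 and damage kinases were higher in 7 of 12 genes, with a median log2 fold change of 0.10, and 0 had an unadjusted p under 0.05. The most abundant was Rps27l, a ribosomal protein-like p53 target. It read 86.4, 169 and 155 CPM in the vehicle livers against 131, 383 and 335 in the treated livers. Its transcript is short, 519 bases, and with each library's length trend removed its log2 fold change was 0.14 in place of 1.05. Zfp385a, a p53 cofactor, was at 36.3 ± 9.35 and 46.2 ± 10.3 CPM in the 2 groups. Other p53 targets of cell cycle arrest were lower in 4 of 7 tested, with a median of -0.64, and Plk3, a stress-activated kinase, was the 1 with an unadjusted p under 0.05 (35.5, 36.6 and 34.98 CPM with vehicle against 41.2, 80.5 and 119 with rhCYGB). Plk2, a related kinase, read 24.1, 28.4 and 31.0 CPM in the vehicle livers against 26.1, 14.7 and 6.59 in the treated livers. Other targets of cell death were lower in 8 of 13, with a median of -0.14. Cdip1, a p53-induced death gene, was higher without overlap at 41.8, 41.5 and 53.004 against 59.96, 87.2 and 131 CPM (edgeR unadjusted p = 0.0160, adjusted p = 0.523). With TMM 6.02% of all genes were higher without overlap. On TPM the groups of Cdip1 overlapped, at 30.1, 18.9 and 27.2 against 33.2, 24.0 and 30.8. On log2(TPM + 1) the log2 fold change was 0.21 for Cdip1 in place of 1.03 and 0.29 for Plk3 in place of 1.17. The median of all genes was -0.58 on that scale. Ei24, an endoplasmic reticulum protein induced by p53, was at 88.6, 140.3 and 160.2 against 158, 227 and 312 CPM, which overlapped.

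Repair and metabolism targets were lower in 8 of 15, with a median of -0.01. Dcxr, a carbonyl reductase, at 59.6 ± 26.9 and 212 ± 149 CPM, and Fdxr, a mitochondrial reductase that feeds electrons to steroid-making enzymes, at 18.9 ± 5.34 and 44.8 ± 31.6 CPM, were the 2 of that list with an unadjusted p under 0.05. Of the other BCL2 family genes 7 of 12 tested were higher, with a median of 0.07. Among them Bnip3, a mitophagy receptor, was at 103 ± 21.5 and 262 ± 146 CPM, and Bad, a BH3-only gene, at 17.9 ± 3.03 and 35.9 ± 16.8 CPM. Both had an unadjusted p under 0.05, and both were highest in rhCYGB replicate 3. With each library's length trend removed, the log2 fold change of Bad, at 941 bases, was 0.35 in place of 1.00. That of Bnip3 was 1.16 in place of 1.35. On log2(TPM + 1) the log2 fold change was 0.86 for Dcxr in place of 1.83 and 0.29 for Fdxr in place of 1.24. On that scale Bad was at 0.10 and Bnip3 at 0.48. The other cyclin-dependent kinase inhibitors and Rb genes were lower in 7 of 9, with a median of -0.29 and 0 at an unadjusted p under 0.05. Cdkn2c was at 15.04 ± 2.19 and 12.3 ± 2.11 CPM, and Cdkn1b, which encodes p27, at 14.5 ± 2.23 and 9.49 ± 5.73 CPM. On log2(TPM + 1) 9 of those 9 were lower, while the median of all genes was -0.58.

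Senescence markers and secreted factors were lower in 10 of 17 tested, with a median of -0.44. With TMM the groups did not overlap for 7 of 17, all lower with rhCYGB, against 7.38% of all genes. On TPM the groups of 2 of these, Lmnb1 and Hmgb2, overlapped (Hmgb2 also picked with its values in view). Those 7 include Lmnb1, picked with its values in view, whose loss is a hallmark of senescent cells. Lower values in this list therefore do not all have the same meaning. The 2 with an unadjusted p under 0.05 were Mmp12, the macrophage elastase, with 115, 164 and 291 CPM in the vehicle livers against 69.3, 85.3 and 38.3 in the treated livers (log2 fold change -1.56, SE 0.45, edgeR adjusted p = 0.523), and Ccl2, the monocyte chemokine, at 13.1 ± 2.75 and 6.25 ± 2.57 CPM. Both are made by immune cells as well as by senescent cells. Of the genes of the integrated stress response, which also induces Gdf15, 4 of 8 were higher and 4 lower, and 4 had an unadjusted p under 0.05. Asns, Trib3 and Chac1 were higher at 6.74 ± 1.66 and 20.2 ± 16.9, 4.99 ± 1.70 and 9.55 ± 1.90, and 1.27 ± 0.540 and 3.91 ± 2.64 CPM. Their log2 fold changes were 1.58, 0.94 and 1.62 with TMM and 0.47, 0.21 and 0.43 on log2(TPM + 1). Atf3, an early stress factor, was narrowly lower without overlap at 20.14, 31.7 and 38.0 against 20.08, 13.3 and 6.03 CPM, as were 7.38% of all genes. The rhCYGB libraries ranked as for Gdf15, with replicate 3 lowest, as it was for 33.4% of all genes with TMM. A link between Atf3 and Gdf15 was not tested. At an unadjusted p under 0.05 the background was 8.12% of all genes. Without rhCYGB replicate 3 it was 2.48%, 0 genes of the stress response list and 0 of the repair and metabolism list had such a p, and the log2 fold changes of Asns and Fdxr were 0.65 and 0.52 in place of 1.58 and 1.24.

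**Figure D4:**
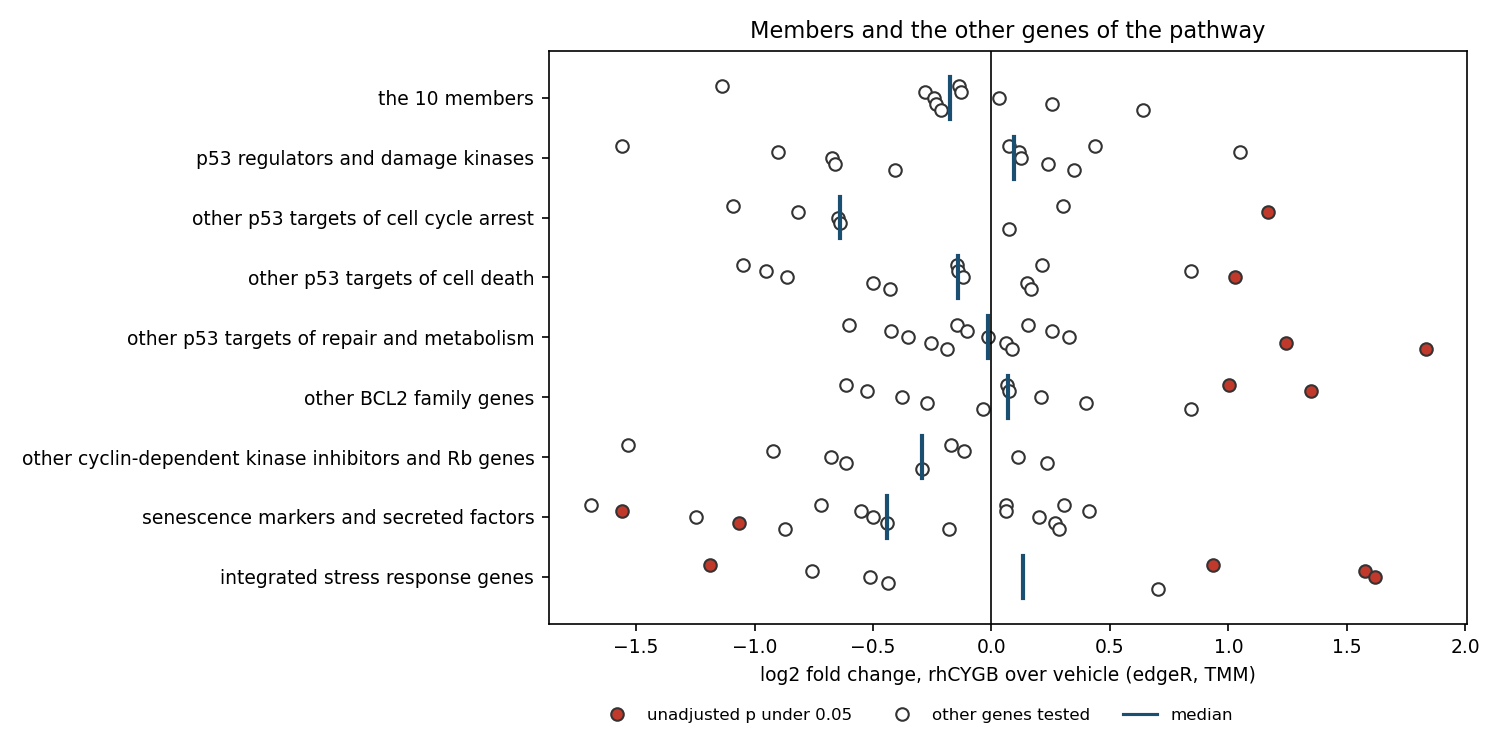
Log2 fold change of rhCYGB over vehicle by edgeR with TMM (horizontal axis) for each gene tested in the set of 10 members and in 8 other lists, with filled points for an unadjusted p under 0.05 and a bar for the median. The members hold no filled point and lie within 0.7 of 0 apart from Gdf15 at -1.14.

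Markers of several liver cell types moved with the libraries in which the members were low. The defining hepatocyte markers (6 genes, among them Alb) summed to 113989 to 129950 TPM with vehicle and 114191 to 137384 TPM with rhCYGB. Single markers within that sum moved in different directions. Trf was at 29501 to 33988 TPM with vehicle and at 30088, 23222.5 and 14419 TPM with rhCYGB. Apoa1 was at 9054 to 17017.5 TPM and at 13366, 27916 and 27977 TPM (both picked after their values were seen). The 6 bile duct cell markers summed to 1174 to 2056 TPM with vehicle and to 880.5, 280.5 and 123 TPM in rhCYGB replicates 1 to 3. The 6 stellate cell markers summed to 72.8 to 106 TPM with vehicle and to 61.6, 30.8 and 11.3 TPM with rhCYGB, and the 5 endothelial cell markers to 63.0 to 123 TPM and to 97.5, 53.1 and 20.6 TPM. The 5 dividing cell markers were at 41.1 to 87.3 TPM with vehicle and at 49.6, 22.1 and 2.82 TPM with rhCYGB. Most of the bile duct sum was Spp1, a secreted protein that other cells make too, at 1111 to 1923 TPM with vehicle and 822, 225 and 72.9 TPM with rhCYGB. The duct keratin Krt19 was at 28.9 to 39.1 TPM with vehicle and 20.9, 30.7 and 28.3 TPM with rhCYGB (both picked after their values were seen). By edgeR with TMM 6 of 6 hepatocyte markers had higher values, with a median log2 fold change of 0.71 and 0 at an unadjusted p under 0.05. That direction depended on the scaling. With library totals alone 4 of 6 were higher, with a median of 0.08, and on log2(TPM + 1) 2 of 6, with a median of -0.09. With TMM, values were lower in 4 of 6 bile duct, 5 of 6 stellate, 4 of 5 endothelial and 5 of 5 dividing cell markers. In that order 1, 1, 0 and 0 had an unadjusted p under 0.05. Macrophage markers were higher in 3 of 5, with a median of 0.02 and 0 at such a p. Monocyte and neutrophil markers were lower in 3 of 4 tested, 1 at such a p, and lymphocyte markers in 2 of 3 tested, 0 at such a p. Of all genes tested 53.2% had lower values and 8.12% had such a p. The macrophage markers summed to 387 to 546 TPM with vehicle and 407, 300 and 156 TPM with rhCYGB, the monocyte and neutrophil markers to 141 to 247 TPM and 142, 119 and 74.2 TPM, and the lymphocyte markers to 4.10 to 16.7 TPM and 6.05, 2.37 and 1.92 TPM. The neutrophil marker Ly6g had 0 counts in all 6 libraries. The 10 members summed to 246 to 298 TPM with vehicle and to 284, 175 and 108 TPM with rhCYGB. The part of cell makeup in the members' values was not tested.

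**Figure D5:**
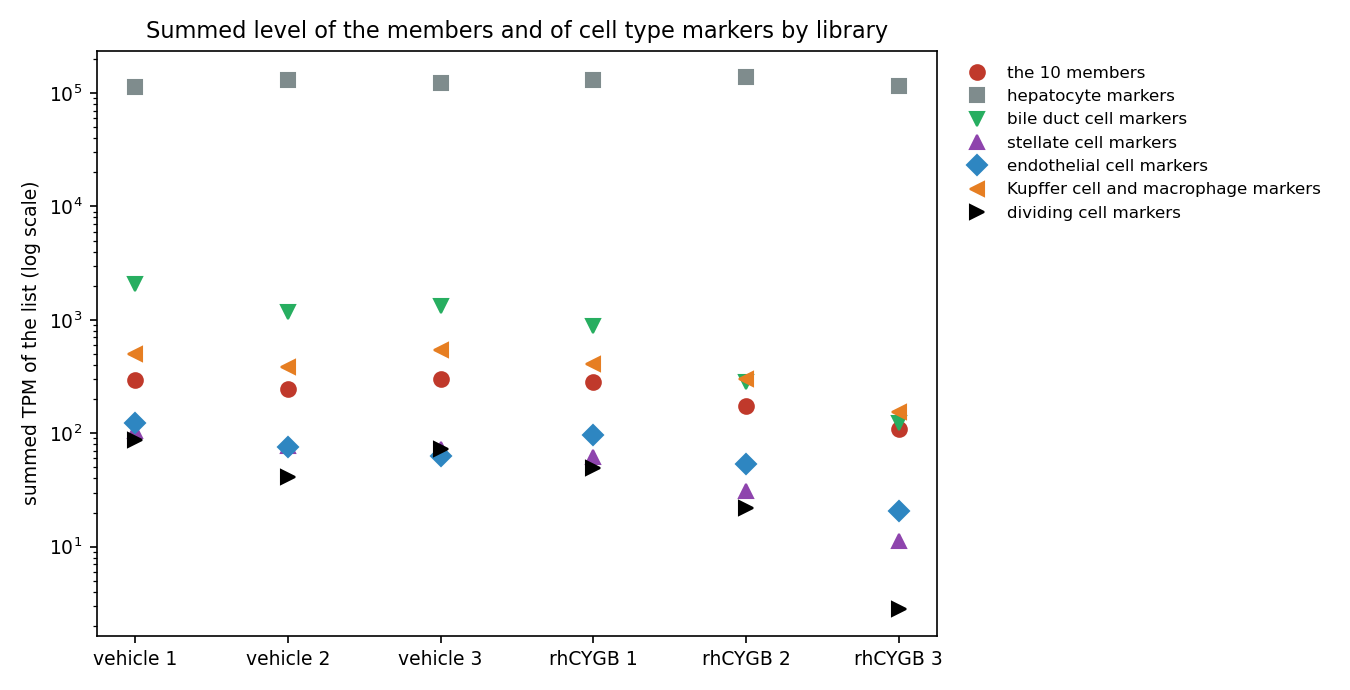
Summed TPM (vertical axis, log scale) of the 10 members and of 6 cell type marker lists in each of the 6 libraries. The hepatocyte sum stays near the same height, although single markers in it move in different directions. The sums of the members and of the other 5 lists are lowest in rhCYGB 3, with the dividing cell markers at 2.82 TPM there. On TPM rhCYGB 3 is the lowest library for 59.7% of all genes tested.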

How the data were processed

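Liver mRNA of 6 mice was sequenced, 1 library per mouse; the labels name each animal, and replicates are numbered 1 to 3 within a group in deposition order, which pairs no animals. The build was mm10, and the programs named were HISAT2 2.1.0, StringTie 1.3.4d and FastQC 0.11.7, per the submitters' processing notes. The authors deposited estimated counts and FPKM per gene and per transcript, with the annotation release and strand setting not given in the sources used here. The deposited FPKM were rescaled here to TPM.

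In R 4.3.3, the 14415 genes kept by filterByExpr were scaled by TMM and tested with edgeR 4.0.16 (quasi-likelihood F test, robust, Benjamini-Hochberg over all genes, adjusted p of 0.05). The SE was taken as |log2 fold change|/√F. DESeq2 1.42.0 and limma 3.58.1 were alternatives, limma on log2(TPM + 1) or log2(TPM + 0.1) of genes with a mean of at least 0.5 TPM. The fit was tested on simulated data. The members and lists were chosen with earlier results of these data known. Named are all members and, from each pathway list, up to 4 genes with the smallest unadjusted p under 0.05, filled up to 2 by TPM; any further gene is marked in the text as picked later.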

Additional observations from a re-analysis of the deposited data

How the results depend on the processing

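Of 147 values of single members with an adjusted p under other settings, 128 kept their direction and their side of an adjusted p of 0.05, 17 changed sign and 2 passed the threshold, both by limma-voom with sample quality weights (Bax at 0.86, adjusted p = 0.0280, and Gdf15 at -1.21, adjusted p = 0.0333); the cause was not tested. Those weights, from the same data, ran from 0.173 in rhCYGB replicate 1 to 4.38 in vehicle replicate 3. The 10 values by DESeq2 kept their direction and had no adjusted p. Bbc3 had a log2 fold change of -0.10 with upper-quartile factors, -0.20 with quality weights, -0.57 and -0.66 on log2(TPM + 1) and log2(TPM + 0.1), -0.034 with the length trend removed and -0.42 with library totals alone, an alternative chosen after seeing the data. Bax was at -0.16 on both TPM scales. Cdkn2a was at -0.19 with the length trend removed and at -0.20 with library totals alone, and Ccng1 at 0.021 with the length trend removed. With 1 library left out Bbc3 ran from -0.19 to 0.30, Cdkn2a from -0.78 to 0.80, Ccng1 from -0.41 to 0.075 and Btg2 from -0.59 to 0.017. The genes past an adjusted p of 0.05 numbered 62 by DESeq2 (of 1890 left by its filtering) and 4410 with quality weights, and from 0 to 3391, without rhCYGB replicate 1, with a library left out; transcripts ran from 0 to 958. An unadjusted p under 0.05 was found for 1170 genes by edgeR, 1934 by DESeq2, 6657 with quality weights, 683 with library totals alone and from 298 to 6152 with a library left out. The members at that p were 5 with quality weights (46.2% of all genes), 1 on each TPM scale and from 0 to 3 with a library left out. The members with higher values were 0 on both TPM scales, 1 with library totals alone and from 1 to 5 with a library left out. Their median was -0.90 and -1.01 on the 2 TPM scales, -0.61 with library totals alone and from -0.37 to -0.01 with a library left out. No paired analysis was possible because the labels give animal numbers and no replicate number shared by the groups.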

Other observations

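The nuclear lamina gene Lmnb1, whose loss is a hallmark of senescent cells, was picked from the senescence list with its values in view. Lmnb1 read 13.3, 7.59 and 8.48 CPM in the vehicle livers against 7.45, 3.60 and 1.27 in the treated livers, with a log2 fold change of -1.25 (SE 0.61, edgeR adjusted p = 0.523). With TMM the value in rhCYGB replicate 1 lay just below the vehicle range, and those in replicates 2 and 3 lay further below it. On TPM the groups overlapped, with rhCYGB replicate 1 at 5.65 TPM inside the vehicle range of 4.72 to 13.2 TPM.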
